A study of Homo sapiens with 6 samples.

Results

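The 10 apolipoprotein genes APOA1, APOA2, APOA4, APOB, APOC1, APOC2, APOC3, APOE, APOH and APOM were followed in HepG2 cells, a human liver cancer line that makes and secretes many plasma proteins. The genes were given by name. Their transcripts were found by matching the transcript identifiers of the deposited table to gene symbols of GENCODE 29, and 48 of 180253 transcripts belonged to them. They are 10 of the 33791 genes with a matched transcript.

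Apolipoproteins are the protein coat of lipoprotein particles, which carry triglyceride and cholesterol through the blood. The liver is a main source of most of them. APOB is the scaffold on which very-low-density particles are built, APOA1 and APOA2 are the main proteins of high-density particles, and the smaller apolipoproteins exchange between particles and set how lipases and receptors act on them. APOA1, APOC3 and APOA4 are neighbours on chromosome 11, and APOE, APOC1 and APOC2 are neighbours on chromosome 19. APOA2 lies on chromosome 1, APOB on chromosome 2, APOM on chromosome 6 and APOH on chromosome 17.

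RNA had been sequenced from 3 libraries of HepG2 cells given 20 µM atractylon, a sesquiterpenoid of Atractylodes rhizomes, and from 3 libraries of HepG2 cells that received no treatment. No vehicle is named for the untreated cells, and the length of treatment is not given in the sources used here. All cells grew in the same serum-containing medium. The labels do not say that the replicates were separate cultures, so the tests reflect no more than library-to-library variation, which may be technical, and in such bulk samples fewer cells and less RNA per cell cannot be told apart.

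Libraries held 7394281 to 8072321 expected counts with atractylon and 5859575 to 8832092 in control. All 10 hepatocyte markers on the list passed the expression filter (3 or more libraries at 0.5 FPKM or above), and their summed FPKM was 14300 to 16200 with atractylon and 14700 to 15600 in control. Of 8 enterocyte markers 1 passed, VIL1, while CDX1 and SI were at 0 in every library, and the summed FPKM of the list was 426 to 447 with atractylon and 408 to 443 in control. Of 8 macrophage and blood markers 3 passed, led by LYZ, CD68 and CD14, with a sum of 551 to 670 FPKM with atractylon and 543 to 692 FPKM in control and C1QA, CSF1R and MARCO at 0. Of 8 fibroblast markers 2 passed, with a sum of 48.9 to 76.6 FPKM with atractylon and 66.3 to 73.7 FPKM in control and COL1A2, COL3A1, DCN and LUM at 0. Of 6 endothelial markers 2 passed, with a sum of 1.6 to 2.49 FPKM with atractylon and 2.21 to 3.69 FPKM in control and KDR, STAB2 and TEK at 0. Of 6 biliary markers 5 passed, led by SPP1, KRT19 and EPCAM, with a sum of 1120 to 1350 FPKM with atractylon and 1170 to 1270 FPKM in control and CFTR at 0. Atractylon replicate 1 stood apart: its chi-square per degree of freedom was 19.15 and 13.77 against the other atractylon libraries, which differed from each other by 3.41, and pairs of control libraries differed by 4.77 to 10.61.

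Per length, the order of the 10 genes was led by the high-density proteins and ran from a mean of 11290 FPKM over the 6 libraries (APOA2) to 0.265 FPKM (APOM). Levels were compared between genes as the deposited FPKM, summed over the transcripts of a gene. FPKM are expected counts scaled by transcript length and library depth, and here they raise short transcripts by more than plain length does. APOA2 came first, with 10550, 12460 and 12650 FPKM with atractylon and 10690, 11400 and 9972 FPKM in control. APOA1, the activator of the enzyme that esterifies cholesterol in high-density particles, had 4752, 5849 and 5410 FPKM with atractylon and 6013, 5718 and 5070 FPKM in control. In FPKM these 2 genes did not overlap with each other or with any other member in the 6 libraries. In expected counts APOA1 exceeded APOA2 in every library. APOA1 had 27161 to 30539 expected counts with atractylon and 24707 to 31435 in control. APOA2 had 18179 to 19326 with atractylon and 13304 to 18724 in control.

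APOE, the ligand by which remnant particles are taken up into the liver, averaged 1911 ± 215 FPKM with atractylon and 1843 ± 45.5 FPKM in control (SD, n = 3 each). APOH, a phospholipid-binding plasma protein also called beta-2-glycoprotein I, averaged 1516 ± 109 FPKM with atractylon and 1597 ± 155 FPKM in control (SD, n = 3 each). The ranges of these neighbours in the order overlapped over the 6 libraries, although APOE exceeded APOH within each of the 6.

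Below them, APOC3, an inhibitor of lipoprotein lipase, averaged 494.1 ± 49.9 FPKM with atractylon and 521.3 ± 58.3 FPKM in control, and APOC2, the cofactor of the same lipase, averaged 438.4 ± 26.3 FPKM with atractylon and 371.7 ± 33.6 FPKM in control (SD, n = 3 each). APOB followed with 709.3, 244.6 and 244.8 FPKM with atractylon and 244.6, 334.8 and 381.1 FPKM in control. APOC1, a small protein known to inhibit cholesteryl ester transfer protein, averaged 229.4 ± 80.6 FPKM with atractylon and 235.0 ± 10.1 FPKM in control (SD, n = 3 each). The range of APOC2 overlapped with that of APOC3 above it and that of APOB below it, and the ranges of APOB and APOC1 overlapped as well. APOC3 exceeded APOC2 in 6 of 6 libraries, APOC2 exceeded APOB in 4 of 6 and APOB exceeded APOC1 in 4 of 6.

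The last 2 genes had the lowest values. APOA4, which in humans is made mainly by the intestine, had 10.03, 8.23 and 7.53 FPKM with atractylon and 8.33, 9.88 and 6.65 FPKM in control, apart from every neighbour. APOM, the carrier of sphingosine-1-phosphate in high-density particles, was at the limit of detection in its matched transcripts. Their summed expected counts were 0, 0.1 and 5.0 with atractylon and 2.2, 2.2 and 0 in control. APOM did not pass the filter and was not tested. Its transcript APOM-203 shared its length and its nonzero values with 5 transcripts of the table that matched no gene. Reads of APOM may thus have been divided among copies. Of 17 unmatched transcripts with the length of APOM-203, the highest had 6182.58 expected counts summed over the 6 libraries. Which gene that transcript belongs to was not examined. The level of APOM is therefore uncertain, and its low values hold for the matched transcripts only.

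**Figure D1:**
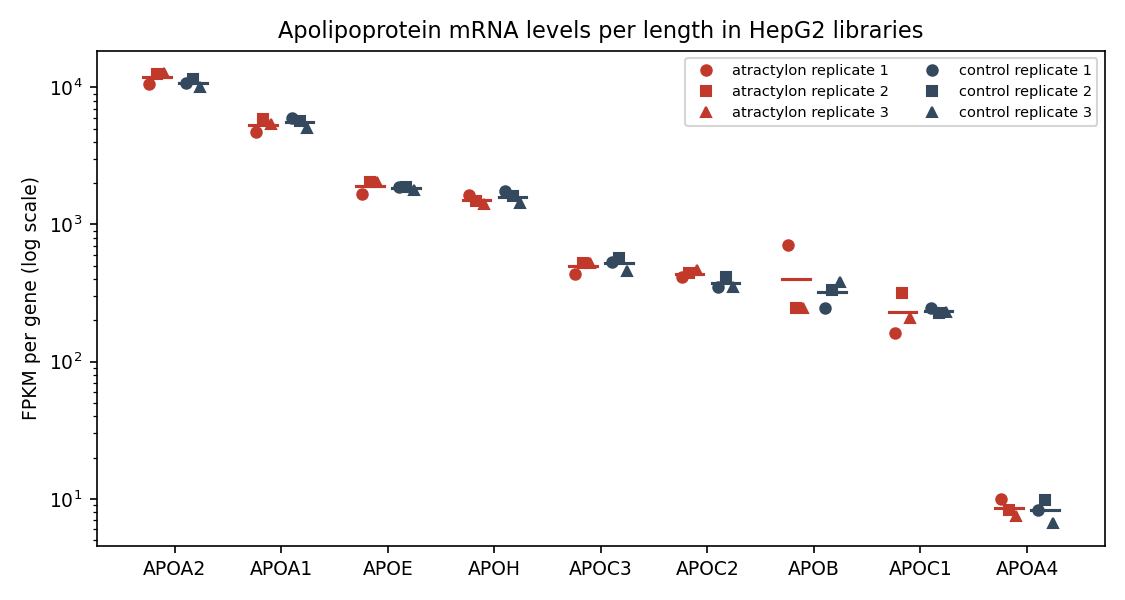
FPKM per gene on a log axis for 9 apolipoproteins, with a point per library and a bar at the mean of each group of 3. The order from APOA2, at a mean of 11290 FPKM over the 6 libraries, down to APOA4, at 8.442 FPKM, is the same kind of ladder in both groups, and APOB in atractylon replicate 1 (709.3 FPKM) is the point farthest from its neighbours. APOM is left out because it was at 0 in some libraries.

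The promoters shown are those of the member with the highest FPKM, of APOH and of the 2 members with the lowest FPKM. The transcripts of APOH are described further on. These promoters are shown to set the range of levels beside the sequence that precedes each gene. The table of RefSeq promoters (GRCh38.p14) held 9 entries for 7 of the 10 members, namely APOA2, APOA4, APOC1, APOC2, APOE, APOH and APOM. The 160 bases before the annotated start are printed 5′ to 3′ on the gene's strand, and capitals mark a match to any of 5 motifs searched on both strands.
APOA2, chr1:161223629-161223788, minus strand: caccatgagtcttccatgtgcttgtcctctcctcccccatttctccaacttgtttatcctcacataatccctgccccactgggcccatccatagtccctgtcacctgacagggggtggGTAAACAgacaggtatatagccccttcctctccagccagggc
APOH, chr17:66229416-66229575, minus strand: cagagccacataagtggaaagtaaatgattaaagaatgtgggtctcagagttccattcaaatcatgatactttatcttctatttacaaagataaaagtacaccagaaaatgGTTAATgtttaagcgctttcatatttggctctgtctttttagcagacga
APOA4, chr11:116823305-116823464, minus strand: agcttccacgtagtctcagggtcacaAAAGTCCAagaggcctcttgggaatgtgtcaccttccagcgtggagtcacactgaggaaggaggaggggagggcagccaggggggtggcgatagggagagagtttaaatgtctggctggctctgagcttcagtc
APOM, chr6:31655734-31655893, plus strand: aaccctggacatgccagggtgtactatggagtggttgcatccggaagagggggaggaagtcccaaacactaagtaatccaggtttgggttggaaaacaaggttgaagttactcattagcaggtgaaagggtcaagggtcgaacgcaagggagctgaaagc

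The motifs were searched in the 250 bases before the start of 35116 promoters, and no printed sequence holds more than 1 of them. TGTTTAC, the core read by FOXA factors, was held by APOA2 and by 2.98% of all promoters. GTTAAT was held by APOH and by 6.23% of promoters. AAAGTCCA, a form of the HNF4A site, was held by APOA4 and by 0.98% of promoters. TATAAA was held by APOC2 and by 10.7%, and CCAAT by APOE and by 32.0%. None of the 5 was found in this window of APOM. A match describes these letters and does not show that a factor binds.

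Together the 10 genes held 1.783%, 1.365% and 1.370% of all gene counts in the atractylon libraries and 1.401%, 1.461% and 1.504% in the control libraries. The 95% Wilson intervals, which cover counting error only, were 1.774% to 1.793%, 1.357% to 1.374% and 1.361% to 1.379% with atractylon and 1.391% to 1.411%, 1.452% to 1.470% and 1.496% to 1.513% in control. The share averaged 1.506% ± 0.24 with atractylon and 1.455% ± 0.052 in control (SD, n = 3 each), and the highest and the lowest libraries were both atractylon libraries. APOB set that spread: it alone held 0.817%, 0.256% and 0.292% with atractylon and 0.297%, 0.366% and 0.529% in control. Without APOB the share was 1.052% ± 0.075 with atractylon and 1.059% ± 0.072 in control. As a share of summed FPKM, where long transcripts weigh less, the 10 genes held 2.698% ± 0.079 with atractylon and 2.584% ± 0.067 in control.

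The study set atractylon against control to compare long non-coding RNAs, and the same contrast is read here for the apolipoprotein genes. None of the 9 tested genes passed an adjusted p of 0.05 in either direction, and the atractylon and control values of every one overlapped. The log2 fold change was positive for 6 of the 9 (APOA2, APOA4, APOB, APOC1, APOC2 and APOE) and negative for APOA1, APOC3 and APOH, with a median of 0.07, against 0.01 over all genes tested. The 95% interval lay within 1.5-fold either way for 8 of the 9, the exception being APOB. The test was edgeR's quasi-likelihood test over 12302 genes with Benjamini-Hochberg adjustment, in which 0.0% of all genes passed the adjusted threshold, 1.59% had an unadjusted p below 0.05 and 5.72% had groups that did not overlap. For the 9 apolipoproteins both of the last counts were 0.

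Among the high-density proteins, APOA2 had 2409, 2892 and 2930 CPM (counts scaled to the effective library size) with atractylon and 2444, 2672 and 2317 CPM in control. The lowest value was a control library, but atractylon replicate 1 lay within the control range, and the log2 fold change was 0.15 ± 0.12 (SE; edgeR, Benjamini-Hochberg adjusted p = 0.9999). APOA1 had 3599, 4638 and 4242 CPM with atractylon and 4538, 4419 and 3889 CPM in control, a log2 fold change of -0.04 ± 0.13 (SE). Both the highest and the lowest APOA1 values came from atractylon libraries. APOA4 had 12.99, 11.24 and 10.16 CPM with atractylon and 10.84, 13.12 and 8.784 CPM in control, with a wider error (log2 fold change 0.08 ± 0.22, SE) at its low level of 67 to 98 expected counts with atractylon and 59 to 87 in control.

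The lipase regulators APOC2 and APOC3 had log2 fold changes of opposite sign, and neither passed the test. APOC2, the activator of lipoprotein lipase, had 144.6, 168.7 and 173.0 CPM with atractylon and 138.9, 149.2 and 132.5 CPM in control. Atractylon replicates 2 and 3 lay above all control libraries and replicate 1 lay inside their range. Its log2 fold change of 0.21 ± 0.11 (SE; 95% interval -0.03 to 0.45) had the smallest unadjusted p of the 9 genes, 0.080, and an adjusted p of 0.9999 (edgeR, Benjamini-Hochberg). APOC3, the inhibitor, had 131.7, 165.7 and 163.4 CPM with atractylon and 164.2, 179.0 and 143.2 CPM in control, a log2 fold change of -0.08 ± 0.13 (SE). The difference between the changes of APOC2 and APOC3 was not tested. APOC1 had 39.49, 50.12 and 37.75 CPM with atractylon and 43.9, 41.32 and 40.71 CPM in control (0.02 ± 0.15, SE), so the control values lay inside the range of the treated ones.

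The counting of APOC2 carries an overlap: the annotated readthrough gene APOC4-APOC2 had 0, 19.7 and 9.2 expected counts with atractylon and 0 in all 3 control libraries. These are few beside the 1091 to 1141 expected counts of APOC2 with atractylon and the 755.6 to 1071 in control. APOC4 itself was at 0 in all 6 libraries.

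The receptor ligand APOE had 1652, 2148 and 2106 CPM with atractylon and 1863, 1927 and 1825 CPM in control, a log2 fold change of 0.07 ± 0.12 (SE). Its control libraries lay close together, while atractylon replicate 1 lay below them and replicates 2 and 3 above them. APOH had 1451, 1405 and 1330 CPM with atractylon and 1635, 1533 and 1368 CPM in control, a log2 fold change of -0.12 ± 0.11 (SE), with 2 of the 3 control libraries above every atractylon library. Without atractylon replicate 1, no member passed the adjusted threshold either, but 4 had an unadjusted p below 0.05. They were APOA2 (log2 fold change 0.23), APOC2 (0.29), APOE (0.19) and APOB (-0.49), with adjusted p of 0.41, 0.39, 0.45 and 0.41 by edgeR with Benjamini-Hochberg adjustment. The log2 fold changes of APOA1 (0.05), APOC3 (0.02) and APOA4 (-0.02) changed sign without that library, and those of APOC1 and APOH were 0.07 and -0.14. In that refit 1319 of all genes had an unadjusted p below 0.05, against 196 with all 6 libraries.

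**Figure D2:**
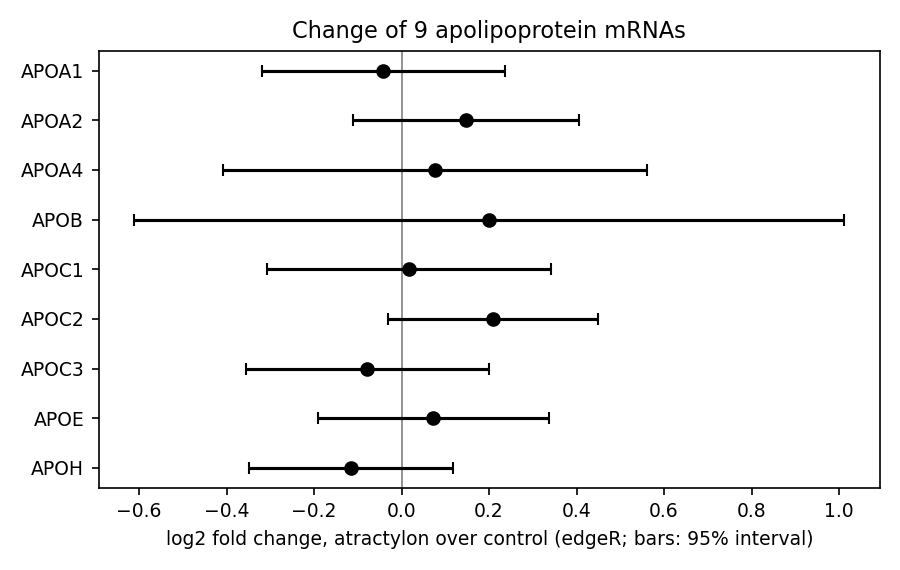
Log2 fold change of atractylon over control for each of the 9 tested apolipoproteins, with the 95% interval from edgeR. All 9 intervals include 0, and that of APOB, from -0.61 to 1.01, is the widest.

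APOB stood apart from the other members by its spread between replicate libraries. It had 7974, 2643 and 2980 CPM with atractylon and 2912, 3653 and 5267 CPM in control, so the highest value was 3.017 times the lowest, and atractylon held both. The log2 fold change was 0.20 ± 0.37 (SE; 95% interval -0.61 to 1.01), and it turned to -0.49 without atractylon replicate 1. Neither value passed the test. Between the highest and the lowest library APOB ranged over 1.59 on the log2 scale, at the 99.8th percentile of the 2132 genes with at least 100 CPM. The other members at that level, APOA1, APOA2, APOC2, APOC3, APOE and APOH, ranged over 0.30 to 0.44, at the 33.0th to 74.7th percentile.

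APOB has one of the longest transcripts among the liver's secreted proteins, with a count-weighted length of 13321 bases and a GC content of 43.8%, while the other tested members have count-weighted lengths of 476 to 1470 bases. Other long genes are set beside it here. Of the genes tested, 160 had a length of at least 7000 bases and a GC content within 3 points of that of APOB, a comparison chosen after the values were seen. Their median log2 deviation from the mean over the 6 libraries was 0.56, -0.38 and -0.21 in the atractylon libraries, in replicate order, and 0.02, -0.08 and 0.15 in the control libraries. APOB deviated by 1.03, -0.56 and -0.39 with atractylon and by -0.42, -0.09 and 0.43 in control, on the same side of 0 as these genes in every library but control replicate 1. It lay at the 97.5th percentile of these long genes in atractylon replicate 1 and at the 2.5th percentile in control replicate 1.

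Across genes, which are not independent replicates, the deviation of a gene in a library went with its GC content by a Spearman rho of -0.60, 0.60 and 0.40 in the 3 atractylon libraries and of -0.43, 0.18 and 0.02 in the 3 control libraries. With the trends on GC content and length taken out of each library, APOB deviated by 0.42, -0.14 and -0.19 with atractylon and by -0.41, 0.03 and 0.28 in control, and its log2 fold change was 0.07. The part of amplification or RNA quality in this spread was not tested.

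**Figure D3:**
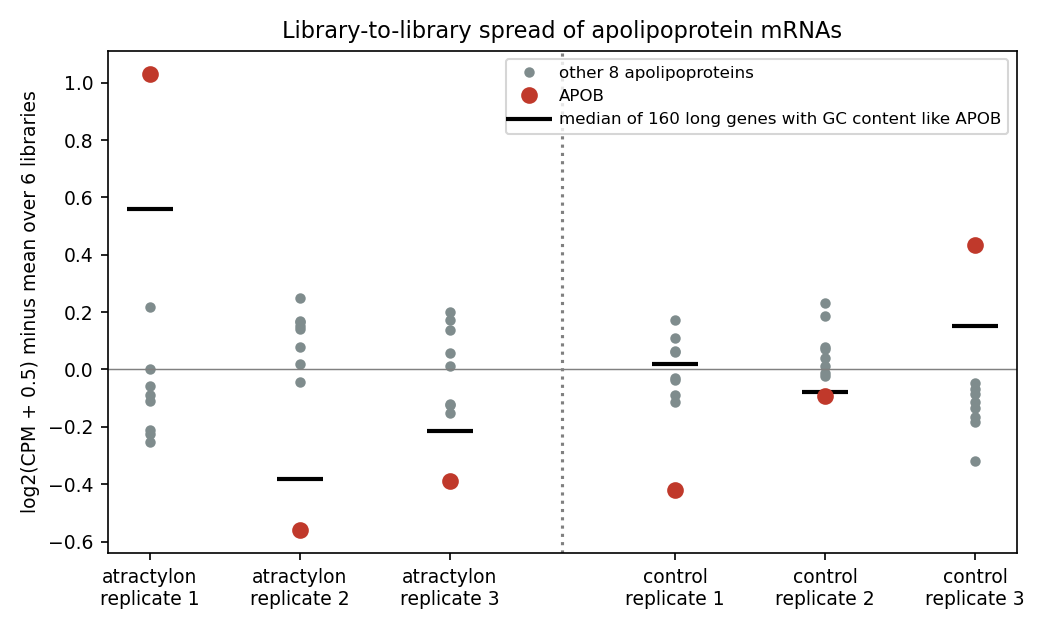
Deviation of log2(CPM + 0.5) from the mean over 6 libraries, by library, for APOB (large points), the other 8 tested apolipoproteins (small points) and the median of 160 long genes of like GC content (bars). APOB reaches 1.03 in atractylon replicate 1 and -0.56 in atractylon replicate 2, outside the other members in both, and the median of the long genes lies on the same side of 0 in those libraries.

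The transcripts of each gene showed which messages make up these levels. Of the 48 transcripts, 42 are annotated as protein-coding, 2 were at 0 in all 6 libraries and 39 passed the filter. A single transcript dominated most genes: APOA4-201 is the only transcript of its gene, and APOC3-201 held 98.93% ± 0.81 of APOC3 counts with atractylon and 99.08% ± 0.6 in control. For APOE-201 the share was 97.31% ± 0.44 with atractylon and 97.56% ± 0.44 in control. APOA2-201 held 93.45% ± 0.14 with atractylon and 93.96% ± 0.53 in control, and APOB-201 held 90.86% ± 2.47 with atractylon and 93.55% ± 3.88 in control (SD, n = 3 each).

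The remaining genes divided their counts more. APOA1-202 held 72.05% ± 1.18 of APOA1 counts with atractylon and 73.78% ± 2.26 in control, and APOA1-204, which has a longer first exon, held 15.89% ± 0.56 with atractylon and 14.08% ± 0.43 in control. APOC2-201 held 70.95% ± 3.57 with atractylon and 73.81% ± 6.84 in control, with most of the rest on the shorter APOC2-205. APOC1-203 held 55.93% ± 3.1 with atractylon and 56.61% ± 5.39 in control (SD, n = 3 each). The unit matters for APOC1: APOC1-205, a transcript of 273 bases, held 5.92% of its counts but 32.72% of its FPKM over the 6 libraries, because FPKM is raised for very short transcripts. The FPKM of APOC1 is therefore less certain than its counts. To a lesser degree this holds for APOC2. APOC2-205, of 444 bases, held 22.33% of APOC2 counts but 41.56% of its FPKM. APOB-202 is not very short, with 3128 bases against 14121 for APOB-201. It held 7.8% of APOB counts but 28.24% of its FPKM, so the FPKM of APOB depends more on how shared reads were divided. The order of APOC2, APOB and APOC1 by FPKM is thus uncertain. The main transcript of APOA2 has 474 bases, so the size of its FPKM lead over APOA1 is less certain too.

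APOB-202 is a transcript of 3128 bases and 17 exons, of which 2421 bases are shared with the full-length APOB-201 of 14121 bases and 29 exons. It had 671.0, 315.8 and 217.5 CPM with atractylon and 192.4, 380.9 and 134.7 CPM in control, a log2 fold change of 0.77 ± 0.50 (SE), and the groups overlapped. The log2 fold change of APOB-202 was 0.18 without atractylon replicate 1 and 1.30 without control replicate 2. Reads from the shared exons were divided by estimation, so its share of APOB counts, 9.14% ± 2.47 with atractylon and 6.45% ± 3.88 in control (SD, n = 3 each), is uncertain.

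For APOH, the main and a minor transcript differed in opposite directions. The main transcript APOH-201 had 1316, 1280 and 1236 CPM with atractylon and 1553, 1474 and 1333 CPM in control. The minor transcript APOH-202 had 117.9, 111.3 and 101.0 CPM with atractylon and 75.71, 75.01 and 67.27 CPM in control. Every atractylon library lay below every control library for the first and above every control library for the second. APOH-202 thus held 8.03%, 7.90% and 7.49% of APOH counts with atractylon and 4.64%, 4.81% and 4.80% in control. The difference in its share was larger than the spread between replicates, 7.81% ± 0.29 with atractylon against 4.75% ± 0.10 in control (SD), with a 2-sided exact permutation p of 0.1, the smallest that 3 against 3 libraries can give.

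The log2 fold change of APOH-202 was 0.60 ± 0.11 (SE), a fold of 1.515 with a 95% interval of 1.265 to 1.815. With edgeR over 39882 transcripts its unadjusted p was 0.00095 and its Benjamini-Hochberg adjusted p was 1.0, so it did not pass. DESeq2 on the same counts gave a log2 fold change of 0.60 with an adjusted p of 0.0078 and called it, among 24 transcripts called higher by that tool. APOH-201 had a log2 fold change of -0.19 ± 0.09 (SE), and APOH-203, with 33.63, 16.44 and 13.55 CPM with atractylon and 6.616, 9.511 and 0 CPM in control, had 1.99 ± 1.12 (SE). Neither passed with edgeR or DESeq2. The unadjusted p of APOH-202 was below 0.05 in each of 12 alternative fits, which include leaving out each library in turn.

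**Figure D4:**
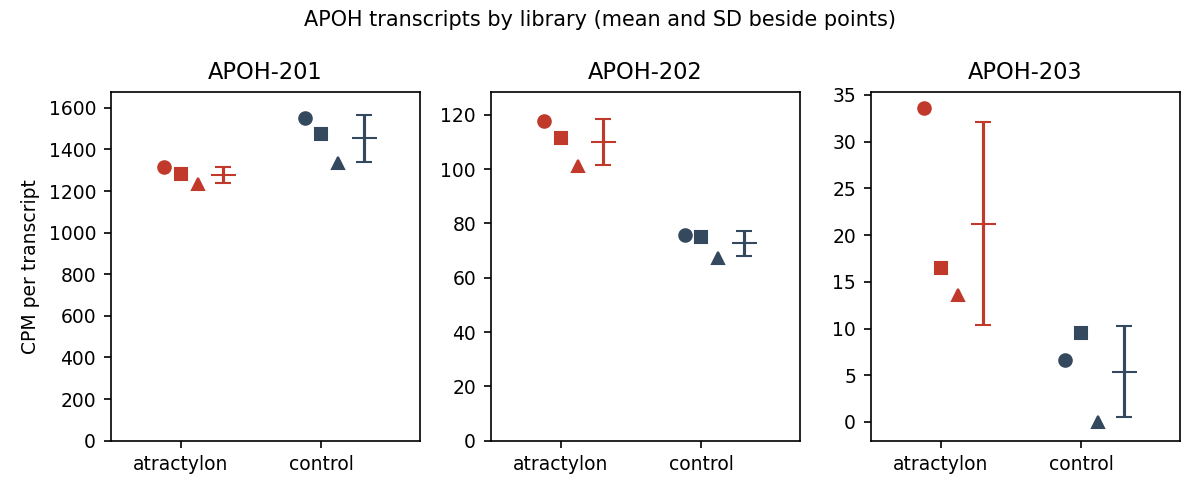
CPM per library of 3 APOH transcripts, atractylon at the left and control at the right of each panel, with the mean and SD of the 3 libraries beside the points. APOH-202 lies between 101.0 and 117.9 CPM with atractylon and between 67.27 and 75.71 CPM in control, while APOH-201 lies lower with atractylon than in control. The axis of APOH-203 starts below 0 so that its control library at 0 can be seen.

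APOH-202 is annotated with 707 bases in 6 exons. It shares 582 bases with APOH-201, which has 1176 bases in 8 exons, and its other 125 bases include a first exon of 120 bases. In GENCODE 29 it starts 27108 bases upstream of APOH-201, and its 3′ end was not found in the annotation, so it is an incomplete model. Of the 96 windows of 25 bases in that first exon, 60 also occur in transcripts of other genes, on either strand, whereas 0 of the 1152 windows of APOH-201 do. No other annotated gene spans that exon. The reads that set APOH-202 apart can therefore not be assigned to APOH with certainty from this table, and its values stay uncertain.

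Over all members, of 39 transcripts tested, 1 had an unadjusted p below 0.05 (APOH-202), a share near the 2.33% of all transcripts, and 0.0% of all transcripts passed the adjusted threshold with edgeR. The groups did not overlap for 3 of the 39 on the higher side (APOA2-204, APOH-202 and APOH-203) and for 1 on the lower side (APOH-201), against 4.27% on the higher and 4.22% on the lower side and 8.49% in all over the transcripts tested. APOA2-204, a minor transcript, had 14.87, 19.02 and 16.48 CPM with atractylon and 6.248, 14.27 and 9.121 CPM in control (log2 fold change 0.76 ± 0.33, SE).

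Shares within a gene were compared as well. Among 19 transcripts with at least 100 mean counts, the share of the gene's counts did not overlap between groups for 5, against 10.4% of 8167 such transcripts over all genes. Besides APOH-201 and APOH-202 these were APOA1-204, APOA1-201 (6.06% ± 0.18 with atractylon and 5.39% ± 0.27 in control) and APOA2-201 (SD, n = 3 each). Shares of 1 gene sum to 100% and are not independent of each other.

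The genes around the apolipoproteins gave no call either. Of the other apolipoproteins and particle-bound proteins, 10 of 20 were tested, 5 with a positive and 5 with a negative log2 fold change and a median of 0.01. APOA5, an activator of triglyceride lipolysis encoded beside APOA4 on chromosome 11, had 195.3, 263.3 and 244.1 CPM with atractylon and 257.4, 258.7 and 222.5 CPM in control (log2 fold change -0.07 ± 0.13, SE). CLU, the particle-bound chaperone clusterin, had a log2 fold change of 0.05 ± 0.12 (SE). PON3, an antioxidant lactonase of high-density particles, had 0.07 ± 0.18, and APOL3 had 0.13 ± 0.35. Without atractylon replicate 1 these were 0.05 for APOA5, 0.14 for CLU, 0.11 for PON3 and 0.28 for APOL3, and leaving out another single library turned the sign of CLU, PON3 or APOL3.

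All 17 genes of particle assembly and secretion were tested, 10 with a positive and 7 with a negative log2 fold change and a median of 0.01. MTTP, the transfer protein that loads lipid onto APOB, had 77.39, 48.14 and 48.06 CPM with atractylon and 53.45, 49.92 and 41.20 CPM in control (0.27 ± 0.20, SE). Its highest value was again atractylon replicate 1, without which the log2 fold change of MTTP was 0.003. KLHL12, an adaptor of a ubiquitin ligase that enlarges secretory coats, had 22.39, 16.86 and 17.89 CPM with atractylon and 15.98, 14.33 and 13.24 CPM in control. The groups of KLHL12 did not overlap (0.40 ± 0.19, SE). SAR1A, a GTPase of the same coats, had a log2 fold change of -0.22 ± 0.12 (SE), and PRAP1, a lipid-binding secreted protein, 0.17 ± 0.20, which was 0.35 without atractylon replicate 1 and -0.04 without atractylon replicate 3.

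In the list of particle remodelling and lipid transfer 12 of 17 genes were tested, 8 with a positive and 4 with a negative log2 fold change. Its median was 0.04. LIPG, endothelial lipase, had a log2 fold change of 0.30 ± 0.30, the protease PCSK6 0.29 ± 0.33 and the cholesterol exporter ABCA1 0.17 ± 0.21 (SE). Without atractylon replicate 1 the log2 fold change of ABCA1 turned to -0.18 and that of PCSK6 was 0.64. That of PCSK6 turned to -0.04 without atractylon replicate 2, and that of LIPG was 0.12 without control replicate 2.

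Of the receptors and their adaptors 15 of 17 were tested, 12 with a positive and 3 with a negative log2 fold change and a median of 0.06. DAB2, an endocytic adaptor, had 4.638, 5.012 and 4.700 CPM with atractylon and 5.511, 6.033 and 7.547 CPM in control, without overlap between the groups (-0.42 ± 0.25, SE). LRP5, a co-receptor of Wnt signalling, had 0.17 ± 0.11 (SE), and MYLIP, a ubiquitin ligase that targets lipoprotein receptors, had 0.65 ± 0.47 (SE). Without atractylon replicate 1 the log2 fold change of MYLIP was 0.25, and it was 1.18 without control replicate 2.

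All 27 transcription regulators of apolipoprotein genes were tested, 14 with a positive and 13 with a negative log2 fold change and a median of 0.01. NR0B2, a nuclear receptor that represses bile acid synthesis, was the only one with an unadjusted p below 0.05. It had 156.2, 205.2 and 193.9 CPM with atractylon and 141.3, 145.4 and 141.8 CPM in control, without overlap (0.37 ± 0.12, SE; edgeR unadjusted p = 0.0088, Benjamini-Hochberg adjusted p = 0.9999). SREBF1, a driver of fatty acid synthesis genes, had 90.51, 86.72 and 115.2 CPM with atractylon and 82.11, 75.71 and 82.03 CPM in control, also without overlap (0.29 ± 0.13, SE). NR5A2, a nuclear receptor of bile acid and cholesterol genes, had a log2 fold change of -0.52 ± 0.32 (SE). That of NR5A2 was -0.83 without atractylon replicate 1 and -0.31 without atractylon replicate 2, and that of SREBF1 was 0.13 without atractylon replicate 3. Over all genes tested 2.71% lay higher and 3.02% lower with atractylon without overlap between the groups.

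The pattern of the summed apolipoproteins over the 6 libraries had, by replicate, log2 deviations of 0.24, -0.06 and -0.08 with atractylon and of -0.10, -0.02 and 0.02 in control. It is mainly the pattern of APOB, which deviated by 1.03 in atractylon replicate 1. In that library APOA4 (0.22) and APOH (0.001) also lay above 0. APOA1 (-0.22), APOA2 (-0.11), APOC1 (-0.09), APOC2 (-0.06), APOC3 (-0.25) and APOE (-0.21) lay below it. Without APOB that library had the lowest share of gene counts, 0.967%. Of 8404 other genes with at least 10 CPM, the nearest in root mean square difference of log2 deviation were LPIN1 (0.034), COCH (0.036), DIS3L (0.044), NCAPD3 (0.046) and RAP1B (0.048). These 5 were picked for their likeness to the sum, so their shared peak in atractylon replicate 1 follows from that choice.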

How the data were processed

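RNA was sequenced from 3 atractylon and 3 control libraries of HepG2 cells; titles gave the group and number of each. Per the labels' protocols, a SMART-Seq v4 low-input kit was used, whose amplification can favour transcripts by GC content and length. For 180253 transcripts the authors deposited an expected count (estimated reads, shared reads being divided) and an FPKM per library, per the file headers. The submitters' processing notes name hg19 as the build, HISAT2 2.0.1 and DESeq2 1.6.3, and also cutadapt 1.9.1 and bcl2fastq 2.17.1.14. Which program estimated the counts, and whether strand was used, is not given in the sources used here. No column of per-sample values was left unused.

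Transcripts were matched by identifier to GENCODE 29, whose build differs, so only names, lengths and structures were used. The 27008 unmatched transcripts, with 8.70% to 9.07% of counts, were left out. Expected counts were summed per gene and rounded. Features with FPKM of at least 0.5 in at least 3 libraries, 12302 genes and 39882 transcripts, were tested with edgeR 4.0.16 (TMM scaling, glmQLFit, glmQLFTest, group only, 2-sided, Benjamini-Hochberg over all features, adjusted p of 0.05). limma 3.58.1 and DESeq2 1.42.0 were alternatives. Fold changes from limma refer to log2(FPKM + 0.5) and understate those of scarce genes. CPM are over the TMM effective library size, and each fit has its own TMM factors, so the CPM of transcripts do not sum exactly to those of their gene. Tests were checked on simulated counts with known changes. Only features above a minimum mean count were changed, and no trends on GC content or length were put into the simulated libraries. The recovery therefore does not cover scarce features or such trends. At an adjusted p of 0.05 the gene test recovered 77.6% of 2-fold and 37.9% of 1.5-fold changes. The transcript test recovered 14.9% of 2-fold and 1.5% of 1.5-fold changes, so most changes of that size in a transcript would be missed. Some 81.3% of genes had a 95% interval within 2-fold.

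The rule for named genes took all 10 members, up to 4 genes with the smallest p of each of 5 pathway lists, the 5 genes nearest in pattern and transcripts with at least 10% of a gene's FPKM. Transcripts named outside it (APOA1-201, APOA2-204, APOH-203) were chosen after their values were seen. Some genes that the rule took are not reported here. The members, lists and rules were chosen with earlier results of these data known. No pair of replicate libraries looked like repeat copies (chi-square per degree of freedom of 3.41 or more).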

Additional observations from a re-analysis of the deposited data

How the results depend on the processing

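No apolipoprotein gene passed the threshold under any of the 19 alternative fits of genes, and APOA2 and APOC2 (positive) and APOH (negative) kept the sign of their log2 fold change in all of them. APOB was negative in 2, at -0.49 without atractylon replicate 1 and at -0.67 without both first replicates, and ranged up to 0.47. Over all genes, 1 was called higher (FAAP100) and 1 lower (ZNF516) without both first replicates. Leaving out 1 library at a time gave 0 higher calls and 0 to 1 lower calls, ZNF516 being called without atractylon replicate 1. Genes with an unadjusted p below 0.05 numbered 196 with edgeR, 102 with DESeq2, 401 with limma on log2(FPKM + 0.5) and 1319 without atractylon replicate 1. Over all transcripts, DESeq2 called 24 higher and 24 lower and the fit without a filter 5 higher and 5 lower, against 0 and 0 with edgeR; of apolipoprotein transcripts, DESeq2 called 1 higher (APOH-202, log2 fold change 0.60). The cause was not tested. Same-numbered libraries of the 2 groups deviated together by correlations of 0.15, 0.19 and 0.01, and differently numbered ones by -0.191 to 0.036. These values do not settle whether the numbers pair the libraries. The main fit used group only, and a replicate block was an alternative. With a replicate block, 0 genes and 0 transcripts were called, 297 genes and 682 transcripts had an unadjusted p below 0.05, and the log2 fold change of APOB was 0.03. With the GC trend removed together with the replicate block it was 0.10. Over the table's whole counts the 10 genes held 1.372% with atractylon and 1.327% in control. The matched transcripts of APOM had at most 5.0 counts in a library, and the part of depth or of reads divided among copies in this was not tested. The spread between libraries limits APOB. The added removal of both GC and length trends was chosen after seeing the data.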
